A study of Homo sapiens with 6 samples.

Results

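The 9 tubulin genes described here are 4 alpha-tubulins (TUBA1A, TUBA1B, TUBA1C and TUBA4A), 4 beta-tubulins (TUBB, TUBB2A, TUBB3 and TUBB6) and the gamma-tubulin TUBG1. They were taken as a named list from the 21619 genes of the count files, which hold 23 tubulin genes in all, by gene name and not by a threshold on a measured value. All 9 passed the filter on low counts, with 740 to 91933 reads per library, and 14 further tubulin genes are given more briefly.

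The libraries came from MDA-MB-231, a triple-negative human breast cancer cell line, carrying ribosomal protein L10a tagged with EGFP in every group. Tagged ribosomes were captured with antibody to GFP and the polyadenylated RNA on them was sequenced, a method called translating ribosome affinity purification. Every culture spent 24 h in 0.2% serum. Untreated cells then received neither factor, the lower dose was 30 ng/mL of the chemokine CXCL12 with 10 ng/mL of the growth factor IGF1, and the higher dose was 300 ng/mL of CXCL12 with IGF1 at 100 ng/mL. Treatment lasted 6 h. Each group had 2 libraries, a and b, which the labels call biological replicates. The p-values of the gene tests rest on the spread between these libraries, which for each gene was drawn largely from the genes tested together. Input RNA was not analysed here, so the amount of an mRNA and its loading onto ribosomes cannot be told apart, nor can the effects of the 2 factors.

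Alpha- and beta-tubulin pair into the heterodimer that polymerises into microtubules, and gamma-tubulin sits in the ring complex from which microtubules start. Cells hold the amount of free tubulin steady through the mRNAs themselves: when free dimer is abundant, the factor TTC5 binds the first residues of a nascent tubulin chain on the ribosome and brings in the CCR4-NOT complex, which removes the mRNA's poly(A) tail. The control acts while the mRNA is being translated, and a ribosome pull-down samples that pool of mRNA.

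The starts of the coding sequences are shown because this control reads the starts of alpha- and beta-tubulin as protein. TUBG1 is given for comparison. Each line gives the first 30 coding bases, 5′ to 3′, of the principal transcript in GENCODE 29 (build GRCh38), with the first 4 codons in capitals.
TUBA1A: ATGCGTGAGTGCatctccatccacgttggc
TUBA1B: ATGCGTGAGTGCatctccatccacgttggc
TUBA1C: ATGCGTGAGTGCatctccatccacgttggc
TUBA4A: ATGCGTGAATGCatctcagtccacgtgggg
TUBB: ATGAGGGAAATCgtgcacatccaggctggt
TUBB2A: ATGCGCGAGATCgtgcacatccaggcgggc
TUBB3: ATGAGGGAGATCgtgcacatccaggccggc
TUBB6: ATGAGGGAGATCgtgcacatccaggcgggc
TUBG1: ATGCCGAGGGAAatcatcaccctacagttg

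TUBA1A, TUBA1B and TUBA1C had the same 30 bases, and TUBB3 and TUBB6 shared the 12 bases in capitals. TUBG1 differed from TUBB at 8 of these 12 bases. After ATG it had CCG, which codes for proline. The alphas and betas had CGT, CGC or AGG there, which code for arginine. Over the whole coding sequence, TUBA1A was 97.2% identical to TUBA1B and 95.87% to TUBA1C, and these alphas were 84.44% to 85.69% identical to TUBA4A. The betas were 80.95% to 87.73% identical to each other. TUBG1 was 52.27% to 55.67% identical to the other members.

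The ends of the coding sequences of TUBA1C and TUBA4A are shown because the last residue of alpha-tubulin is removed and put back in the tyrosination cycle, and these genes differ there. Each line gives the last 30 coding bases, 5′ to 3′, with the stop codon in capitals.
TUBA1C: gacggagaggatgagggtgaagagtatTAA
TUBA4A: tatgaggacgaggatgagggagaagaaTAA

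The codon before the stop was tat in TUBA1C, which codes for tyrosine, and gaa in TUBA4A, which codes for glutamate.

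The likeness of the genes bears on how reads are assigned. Of the 50-base windows of the principal transcript, 48.18% for TUBA1A, 37.26% for TUBA1B and 34.54% for TUBB2A occurred in the transcripts of no other annotated gene, so the values of these genes are uncertain to the extent that reads were split or dropped. The read length is not known, and with 100-base windows these shares were 73.4%, 62.83% and 43.65%. TUBB2A shared 60.35% of its 50-base windows with its neighbour TUBB2B. The share of 50-base windows in no other gene was 70.1% for TUBG1, 74.86% for TUBA1C, 81.84% for TUBB, 91.1% for TUBB3, 94.75% for TUBA4A and 99.01% for TUBB6. In all these shares, a non-tubulin gene that overlaps a member in the genome was not counted as another gene. In GENCODE 29, TUBA1B, TUBA1A and TUBA1C are consecutive coding genes, and TUBA1A overlaps TUBA1C on the opposite strand. TUBA4A overlaps STK16 and TUBA4B, TUBB6 overlaps AFG3L2, and TUBG1 overlaps RETREG3 (FAM134C in the files), all on the opposite strand. Whether counting used strand is not given in the sources used here, so reads from such pairs may not be told apart.

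Reads on genes ranged from 26255079 to 30280322 per library. A count of 0 would allow a level of up to 0.09907 to 0.1143 CPM (reads scaled by library size), a limit of 3 reads that covers counting error only. The mesenchymal markers of the line were present, with VIM at 2675 to 3753 CPM and CD44 at 739.1 to 941.7 CPM. ESR1 had 0 to 4 reads and PGR 0 to 5 reads, CDH1 had 2 to 13 reads, and the T cell marker CD3E had 0 reads in every library. ERBB2, at 54.16 to 77.36 CPM, and EPCAM, at 11.28 to 13.63 CPM, were not absent.

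In untreated cells TUBB had the most reads of the tubulin mRNAs in the pull-down, and TUBA1B had the most of the alphas. Per kb of transcript, TUBB stood at 1137 ± 2.2 CPM per kb (SD, n = 2) and TUBA1B at 1040 ± 11.9 CPM per kb. Among the members, TUBA1C followed at 228 ± 2.63, TUBG1 at 155.9 ± 0.478, TUBA1A at 124.1 ± 3.91 and TUBB6 at 122.9 ± 1.34 CPM per kb. The lowest members were TUBB3 at 73.03 ± 1.6, TUBA4A at 32.69 ± 0.572 and TUBB2A at 16.5 ± 1.7 CPM per kb. By untreated CPM, without length, TUBB ranked 8 and TUBA1B 29 among all genes, while TUBB2A ranked 6730. TUBB4B, a beta that is not a member, ranked 145 (781.2 CPM), above TUBA1C at 186 (684.4 CPM). The level of TUBB4B per kb was not computed.

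Among neighbours in this order, only TUBA1A and TUBB6 overlapped over the 6 libraries. Untreated libraries a and b had 126.9 and 121.4 CPM per kb for TUBA1A and 122 and 123.9 for TUBB6. At the higher dose the pair had parted, with TUBA1A at 81.41 and 83.49 and TUBB6 at 140.3 and 141.8 CPM per kb. TUBA1A then overlapped TUBB3, which is not its neighbour in this order and had 81.89 and 78.12 CPM per kb. The length used matters for some genes. With the shortest RefSeq transcript, the untreated level was 523.1 CPM per kb for TUBB6, 403.8 for TUBA1C and 171.7 for TUBA1A. With the longest, TUBB stood at 1046 CPM per kb, beside 1040 for TUBA1B. The levels were also not corrected for windows shared with other genes. Of the 50-base windows, 81.84% for TUBB and 37.26% for TUBA1B were in no other gene. How this bears on the order of the members per kb was not tested.

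**Figure D1:**
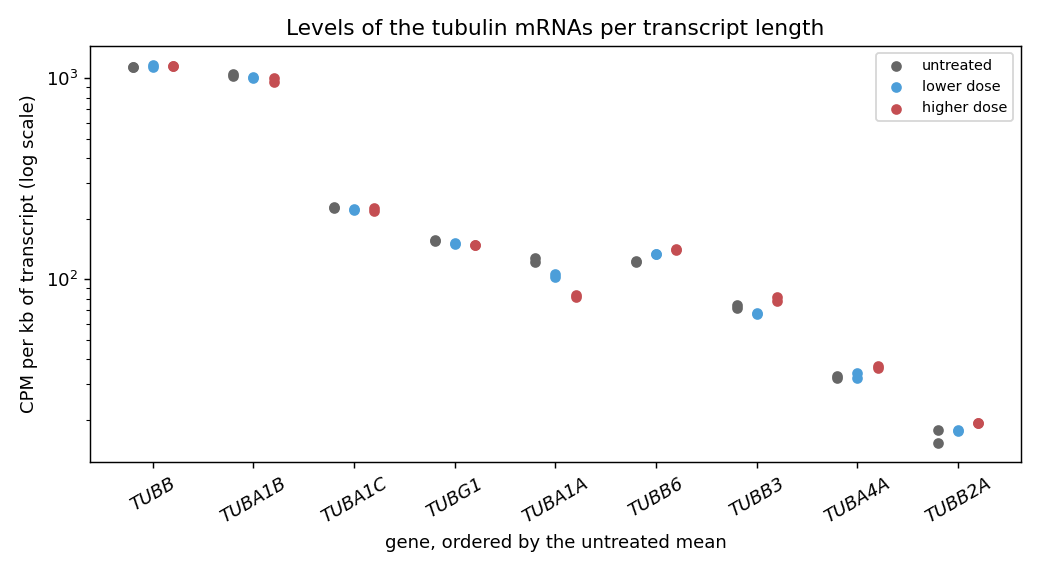
Level of each listed tubulin mRNA in CPM per kb of transcript (log axis), 1 point per library, coloured by dose and ordered by the untreated mean. TUBB and TUBA1B are the highest in all libraries, and TUBA1A and TUBB6, level in untreated cells, stand apart at the higher dose.

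Among the alphas, TUBA1A mRNA fell with each dose. TUBA1A encodes the alpha-tubulin best known from developing neurons. It had 243 and 232.4 CPM in untreated libraries a and b, 197.6 and 202.8 CPM at the lower dose, and 155.9 and 159.9 CPM at the higher dose. Every treated library lay below both untreated ones, and both higher dose libraries lay below both lower dose ones. TUBA1A fell by 15.7% at the lower dose (log2 fold change -0.25 ± 0.03 SE, edgeR adjusted p = 2.26e-09). At the higher dose it fell by 33.5% (-0.59 ± 0.03, edgeR adjusted p = 1.93e-23), and from the lower to the higher dose by 21.1% (-0.34 ± 0.03, edgeR adjusted p = 3.5e-13). Of all genes tested, 4.78% fell at least as far as TUBA1A at the higher dose.

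The other alphas stayed closer to their untreated level. TUBA1B, a ubiquitous alpha, had 1678 and 1705 CPM untreated, 1625 and 1647 CPM at the lower dose, and 1626 and 1560 CPM at the higher dose. All treated libraries were below both untreated ones, while the 2 doses overlapped. TUBA1B fell by 5.82% at the higher dose (log2 fold change -0.09 ± 0.03 SE, edgeR adjusted p = 0.00372), a call that was lost without higher dose library b (-0.06, adjusted p = 0.177). At the lower dose its log2 fold change was -0.05 ± 0.03 (adjusted p = 0.156), and with a correction for transcript length and GC content it passed there (-0.08, adjusted p = 0.00337). Between the doses it was -0.04 ± 0.03 (adjusted p = 0.272), and it also passed with that correction (-0.06, adjusted p = 0.0252).

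TUBA1C, the third gene of the alpha cluster, had 678.8 and 689.9 CPM untreated, 666 and 669.5 CPM at the lower dose, and 675.7 and 658 CPM at the higher dose. Its untreated libraries were the highest, but no comparison passed the test (edgeR adjusted p = 0.321, 0.229 and 0.966 for lower against untreated, higher against untreated and higher against lower). With upper-quartile scaling the higher dose passed (log2 fold change -0.06, adjusted p = 0.0399), and with the length and GC correction its value was 0.003.

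TUBA4A, the alpha encoded without a final tyrosine, moved the other way at the higher dose. It had 71.56 and 69.81 CPM untreated, 69.79 and 73.84 CPM at the lower dose, and 79.65 and 78.68 CPM at the higher dose. The untreated and lower dose libraries overlapped and both higher dose libraries stood above them. TUBA4A rose 1.121-fold at the higher dose (log2 fold change 0.16 ± 0.04 SE, edgeR adjusted p = 0.000255), and not detectably at the lower dose (0.02, adjusted p = 0.692). Between the doses the log2 fold change was 0.14 ± 0.04 (adjusted p = 0.00292), which did not pass without lower dose library a (0.10, adjusted p = 0.101).

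TUBA1A, TUBA1B and TUBA1C, with the same first 30 coding bases, thus had log2 fold changes of -0.59, -0.09 and -0.04 at the higher dose. TUBA1A reads came to 14.5% and 13.6% of TUBA1B reads in untreated libraries a and b, 12.2% and 12.3% at the lower dose, and 9.59% and 10.2% at the higher dose. No group overlapped another. The two-sided exact permutation p was 0.333 for each pair of groups, the smallest that 2 libraries against 2 allow. How the likeness of the 3 genes in sequence bears on this ratio was not tested.

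**Figure D2:**
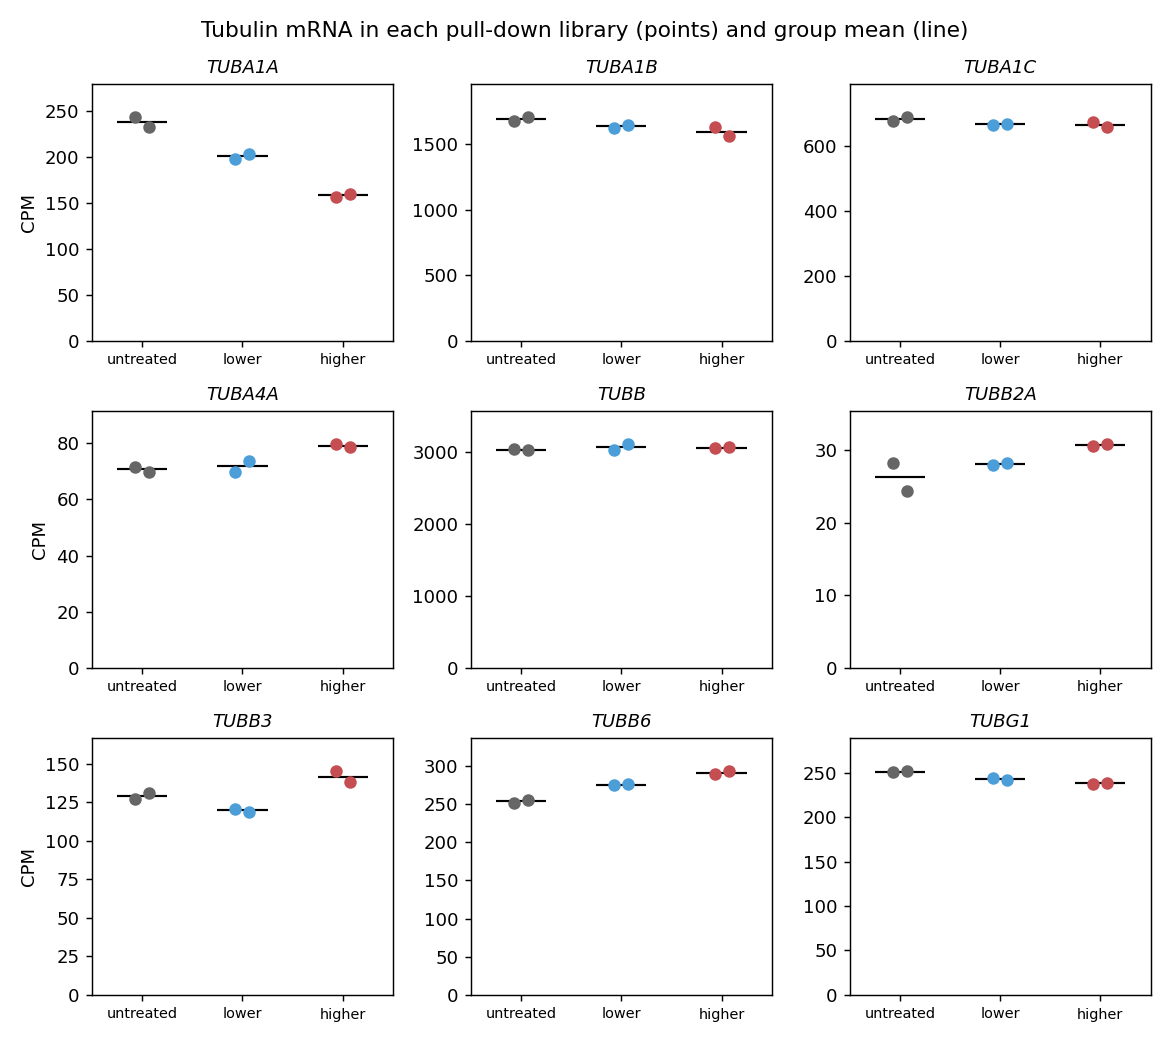
CPM of each of the 9 tubulin genes (vertical axes from 0, different for each gene) in the untreated, lower dose and higher dose libraries, with 1 point per library and a line at the group mean. TUBA1A steps down from 237.7 to 200.2 to 157.9 CPM and TUBB6 steps up from about 254 to 291, while TUBB stays between 3032 and 3109 CPM.

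Among the listed betas, TUBB mRNA passed the test in no comparison, and TUBB2A, TUBB3 and TUBB6 rose at the higher dose. TUBB, the main beta of most cells, had 3040 and 3032 CPM untreated, 3032 and 3109 CPM at the lower dose, and 3061 and 3067 CPM at the higher dose. The lower dose libraries overlapped the untreated ones, and the higher dose libraries lay just above them. Its log2 fold change was 0.02 ± 0.02 SE at the lower dose (edgeR adjusted p = 0.665) and 0.01 ± 0.02 at the higher dose (adjusted p = 0.682). Neither passed, and the standard error was far below the size of the TUBA1A change.

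TUBB6, a widely expressed class V beta, rose with each dose. It had 251.7 and 255.6 CPM untreated, 274.7 and 276 CPM at the lower dose, and 289.7 and 292.7 CPM at the higher dose. No group overlapped another. TUBB6 rose 1.085-fold at the lower dose (log2 fold change 0.12 ± 0.03 SE, edgeR adjusted p = 0.000768) and 1.148-fold at the higher dose (0.20 ± 0.03, adjusted p = 2.2e-08). The step between the doses was 0.08 ± 0.03 (adjusted p = 0.0199). It was lost when any of the 4 libraries of the 2 doses was left out (adjusted p = 0.0662 to 0.142), and with upper-quartile scaling (0.07, adjusted p = 0.0588).

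TUBB3, the class III beta used as a marker of neurons and found in many tumours, fell at the lower dose and rose at the higher dose. It had 127.2 and 131.2 CPM untreated, 120.6 and 118.8 CPM at the lower dose, and 144.9 and 138.2 CPM at the higher dose. The lower dose libraries were the lowest and the higher dose libraries the highest, with no overlap. TUBB3 fell by 7.37% at the lower dose (log2 fold change -0.11 ± 0.03 SE, edgeR adjusted p = 0.00785), a call lost without untreated library b (-0.09, adjusted p = 0.0793) or lower dose library b (-0.10, adjusted p = 0.0704). It rose 1.095-fold at the higher dose (0.13 ± 0.03, adjusted p = 0.00059). The direct comparison of the doses gave 0.24 ± 0.03 (adjusted p = 3.74e-08), and 9.68% of all genes tested rose at least as far between the doses.

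TUBB2A, a beta of neurons and other cells, had the fewest reads of the members. It had 28.23 and 24.4 CPM untreated, 27.92 and 28.29 CPM at the lower dose, and 30.65 and 30.83 CPM at the higher dose. The higher dose libraries stood above all others, and the untreated libraries were further apart than those of either dose. TUBB2A rose 1.173-fold at the higher dose (log2 fold change 0.23 ± 0.06 SE, edgeR adjusted p = 0.000741), a call that did not pass without untreated library b (0.12, adjusted p = 0.138). At the lower dose it had 0.10 ± 0.06 (adjusted p = 0.203), and passed without untreated library a (0.20, adjusted p = 0.0239). Its near-identical neighbour TUBB2B had 49 to 66 reads per library.

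TUBG1, the gamma-tubulin that founds the ring complex, was lower by a small step at each dose. It had 250.6 and 251.6 CPM untreated, 243.9 and 242.5 CPM at the lower dose, and 238 and 239.1 CPM at the higher dose. No group overlapped another. At the higher dose it fell by 5.01% (log2 fold change -0.07 ± 0.03 SE, edgeR adjusted p = 0.0231). That call was lost with DESeq2 (adjusted p = 0.0631) and without untreated library b (0.0627), higher dose library a (0.104) or higher dose library b (0.0807). The lower dose did not pass (-0.05 ± 0.03, adjusted p = 0.221), except with the length and GC correction (-0.07, adjusted p = 0.0385).

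**Figure D3:**
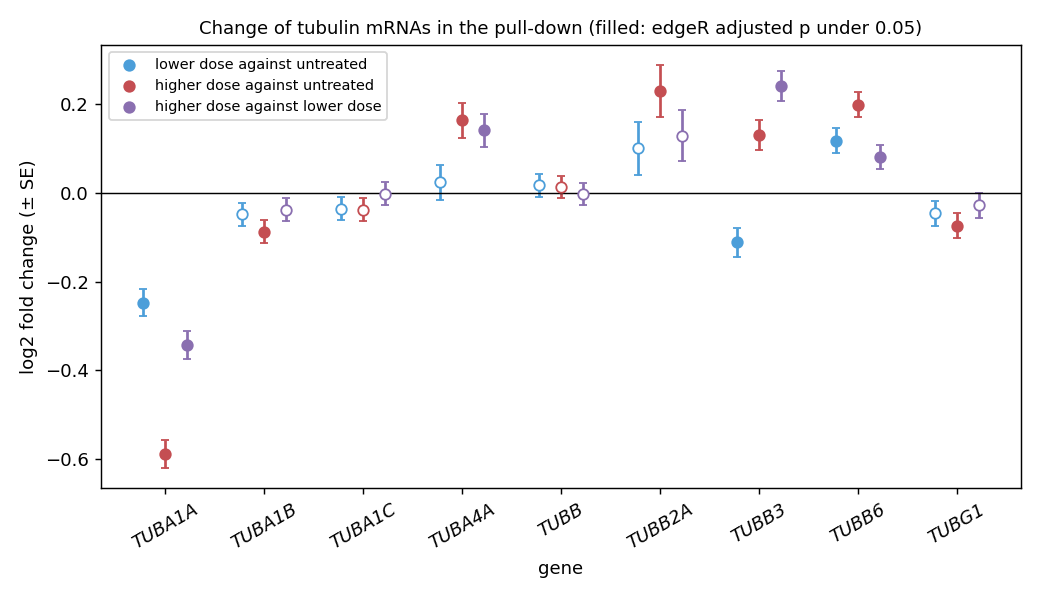
Log2 fold change of each tubulin gene with its standard error, for the lower dose against untreated, the higher dose against untreated and the higher against the lower dose, filled where edgeR's adjusted p was under 0.05. TUBA1A is lowest in all 3 comparisons, while TUBB and TUBA1C are open in each.

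Of the 9 members, 1 rose (TUBB6) and 2 fell (TUBA1A and TUBB3) at the lower dose, where 32.6% of all genes tested were called (16.7% higher and 15.9% lower). The 3 calls are close to that background. At the higher dose 4 rose (TUBA4A, TUBB2A, TUBB3 and TUBB6), 3 fell (TUBA1A, TUBA1B and TUBG1) and TUBA1C and TUBB did not pass, against 56.3% called among all genes (28.1% higher and 28.2% lower). Between the doses 3 rose (TUBA4A, TUBB3 and TUBB6) and TUBA1A fell, against 34% called (16.4% higher and 17.6% lower). The 3 comparisons share libraries. The median log2 fold change of the members was -0.036, 0.013 and -0.002 in these comparisons, beside -0.002, -0.001 and -0.001 over all genes tested.

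Summed over the 4 alphas, reads fell from 2684.4 ± 18.6 CPM (SD, n = 2) untreated to 2576 ± 24.2 CPM at the lower dose and 2497.1 ± 56.7 CPM at the higher dose, without overlap of the groups. The 4 listed betas summed to 3445 ± 2.99, 3494 ± 54.5 and 3527.5 ± 1.24 CPM, and the 2 doses overlapped. With every beta gene in the files the sums were 4229.5 ± 6.53, 4238 ± 62.7 and 4263.2 ± 8.44 CPM. In these sums the lower dose libraries overlapped both other groups. The added reads are nearly all of TUBB4B, which is not among the 9. The ratio of alpha to listed beta reads was 0.7749 and 0.7835 in untreated libraries a and b, 0.7405 and 0.7341 at the lower dose, and 0.7194 and 0.6964 at the higher dose. Within the alphas, the share of TUBA1A went from 8.86% to 7.77% to 6.33% of reads, and within the listed betas the share of TUBB6 went from 7.36% to 7.88% to 8.26%.

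Of the other 14 tubulin genes, 6 could be tested. TUBB4B, a ubiquitous beta, fell from 781.2 ± 3.55 CPM (SD, n = 2) to 740.2 ± 8.15 CPM at the lower dose (log2 fold change -0.08 ± 0.03 SE, edgeR adjusted p = 0.0166) and reached 731.5 ± 9.32 CPM with the higher dose (-0.10 ± 0.03, adjusted p = 0.00159). The lower dose call was lost without untreated library a (adjusted p = 0.0544) or lower dose library a (0.135). TUBB1, the beta of platelets, had 27 to 53 reads per library and log2 fold changes of 0.66 ± 0.23 (adjusted p = 0.0205) and 0.55 ± 0.23 (adjusted p = 0.0425). The first was lost without untreated library a, lower dose library a or lower dose library b (adjusted p = 0.161, 0.076 and 0.0838), and DESeq2 gave it no adjusted p. The second was lost with DESeq2 (0.207), with upper-quartile scaling (0.0527), with no filter on low counts (0.0529) and without untreated library a (0.226), untreated library b (0.0519) or higher dose library a (0.229). TUBE1, an epsilon-tubulin of centrioles, reached 0.22 ± 0.09 at the higher dose (adjusted p = 0.0328), which was lost with DESeq2 (adjusted p = 0.192), with upper-quartile scaling (0.0587), with the length and GC correction (0.13, adjusted p = 0.208) and when any of the untreated or higher dose libraries was left out (0.0532 to 0.164). TUBG2, TUBD1 and TUBB2B did not pass in any comparison. At the higher dose TUBG2 passed with upper-quartile scaling (-0.15, adjusted p = 0.047) and with the length and GC correction (-0.16, adjusted p = 0.0287), which also brought TUBD1 past the threshold (-0.25, adjusted p = 0.0404). Between the doses TUBG2 passed with that correction (-0.17, adjusted p = 0.0367) and without lower dose library a (-0.20, adjusted p = 0.041). The 8 that could not be tested (TUBA3C, TUBA3D, TUBA3E, TUBA4B, TUBA8, TUBAL3, TUBB4A and TUBB8) had 0 to 15 reads per library.

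The genes of tubulin handling were counted in the same fits, where 16.7% of all genes tested rose and 15.9% fell at the lower dose, and 28.1% rose and 28.2% fell at the higher dose. Of 8 folding cofactors, which assemble the alpha-beta dimer, 2 rose and 2 fell at the lower dose and 4 rose and 2 fell at the higher dose, where their median was 0.041 on the log2 scale. The 4 that rose became 1 with DESeq2 and 1 with the length and GC correction, and 2 with upper-quartile scaling, without untreated library a or without higher dose library b, without which 1 fell. The 2 that rose at the lower dose became 1 with DESeq2, with the correction or without lower dose library a, and 0 without untreated library a, and the correction left 1 that fell. The cofactor median at the higher dose was -0.031 with the length and GC correction. TBCC, which with TBCD and TBCE drives the last step of dimer release, fell from 66.81 ± 0.0459 CPM (SD, n = 2) untreated to 53.68 ± 1.05 CPM at the higher dose (log2 fold change -0.32 ± 0.04 SE, edgeR adjusted p = 2.43e-09). TBCA, which holds beta-tubulin, rose at the higher dose (0.25 ± 0.03, adjusted p = 1.95e-09) and TBCD fell (-0.13 ± 0.04, adjusted p = 0.00301), but with the length and GC correction these became -0.002 (adjusted p = 0.964) and 0.013 (adjusted p = 0.776). TBCD also missed the threshold without higher dose library b (adjusted p = 0.0551).

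Of 16 genes of the chaperonin that folds tubulin and its partner prefoldin, 7 rose and 3 fell at the higher dose (against 28.1% and 28.2% among all genes), and 4 rose and 4 fell at the lower dose. With the length and GC correction 4 rose at the higher dose, and 2 rose and 7 fell at the lower dose. Without lower dose library a, 2 rose at the lower dose. The prefoldin subunit gene PFDN2 rose from 139.6 ± 3.68 to 208.6 ± 6.02 CPM (n = 2, with SD; log2 fold change 0.58 ± 0.03 SE, edgeR adjusted p = 3.29e-22), and the chaperonin subunit gene CCT6A rose from 358.1 ± 1.56 to 402.6 ± 4.4 CPM (0.17 ± 0.03, adjusted p = 5.39e-07). Of the chaperonin subunit genes only CCT6A rose at the higher dose, while CCT2 and CCT7 fell. The 4 genes that fell at the lower dose were CCT2, CCT3, CCT7 and CCT8. All other genes of this list that rose, at either dose, were of prefoldin. The chaperonin genes other than CCT6A were named after their calls were seen. The median of this list was 0.032 at the higher dose and became -0.029 with the length and GC correction.

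In the autoregulation list of TTC5 and CCR4-NOT genes, 3 of 12 rose and 1 fell at the higher dose, near or below the 28.1% and 28.2% of all genes, and 2 rose and 1 fell at the lower dose. The 1 that fell at the lower dose, CNOT3, was named after its value was seen, and the count became 0 with DESeq2, with the length and GC correction and without any of the untreated or lower dose libraries. With upper-quartile scaling 2 fell at the higher dose. TTC5, the reader of nascent tubulin, had 13.68 ± 0.893 CPM (SD, n = 2) untreated and 15.9 ± 0.357 CPM at the higher dose (log2 fold change 0.21 ± 0.08 SE, edgeR adjusted p = 0.0143). That call was lost with DESeq2 (adjusted p = 0.117), without untreated library a (0.165) and without higher dose library b (0.0982). CNOT7, a deadenylase of the complex, rose from 108 ± 1.72 to 127.4 ± 4.57 CPM (0.24 ± 0.03, adjusted p = 2.62e-08), and CNOT8, its close paralogue, fell from 67.2 ± 0.835 to 60.15 ± 2.63 CPM (-0.16 ± 0.04, adjusted p = 0.000747).

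Of 22 genes of the gamma-tubulin ring complex and its anchors, 10 rose and 7 fell at the higher dose (against 28.1% and 28.2% among all genes), with a median of 0.087, and 6 rose and 6 fell at the lower dose. MZT1, a small protein of the ring complex, rose from 60.5 ± 5.39 to 82.92 ± 5.33 CPM (n = 2, with SD; log2 fold change 0.45 ± 0.05 SE, edgeR adjusted p = 1.98e-12). HAUS2, of the augmin complex that branches microtubules, rose from 50.08 ± 1.04 to 65.52 ± 0.339 CPM (0.39 ± 0.04, adjusted p = 7.94e-11). PCNT, the centrosome scaffold pericentrin, fell from 41.74 ± 0.0103 to 32.72 ± 1.64 CPM (-0.35 ± 0.05, adjusted p = 3.86e-08).

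Of 17 tested tubulin modifying enzymes, 5 rose and 7 fell at the higher dose (median -0.111; against 28.1% and 28.2% among all genes) and 1 rose and 1 fell at the lower dose. Without higher dose library b 3 rose at the higher dose, and without untreated library a 4 fell. At the lower dose 3 rose and 2 fell with the length and GC correction, and 2 rose without lower dose library b. HDAC6, the tubulin deacetylase, fell from 40.1 ± 0.799 to 29.86 ± 0.869 CPM (n = 2, with SD; log2 fold change -0.42 ± 0.05 SE, edgeR adjusted p = 5.63e-10). VASH1, which removes the final tyrosine of alpha-tubulin, fell from 8.449 ± 0.103 to 5.842 ± 0.168 CPM (-0.53 ± 0.11, adjusted p = 2.32e-05). AGTPBP1 also fell (-0.23 ± 0.05, adjusted p = 2.25e-05). TTLL12, among the 5 that rose, went from 66.95 ± 1.31 to 78.32 ± 0.279 CPM (0.23 ± 0.04, adjusted p = 9.99e-07). Of 38 tested microtubule-associated and polymer-regulating genes, 3 rose and 15 fell at the higher dose (median -0.094; against 28.1% and 28.2% among all genes), and 2 rose and 11 fell at the lower dose (against 16.7% and 15.9% among all genes). The 11 that fell at the lower dose became 6 with DESeq2 and 7 without lower dose library a, and the 2 that rose became 0 with DESeq2 and 1 without either untreated library or lower dose library a. MAP4, a microtubule-binding protein of non-neuronal cells, fell from 189.9 ± 9.37 to 133.6 ± 5.7 CPM (-0.51 ± 0.03, adjusted p = 4e-19), and KIF2C, a microtubule depolymerase, from 174.7 ± 4.85 to 134.8 ± 4.76 CPM (-0.38 ± 0.03, adjusted p = 5.68e-15).

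**Figure D4:**
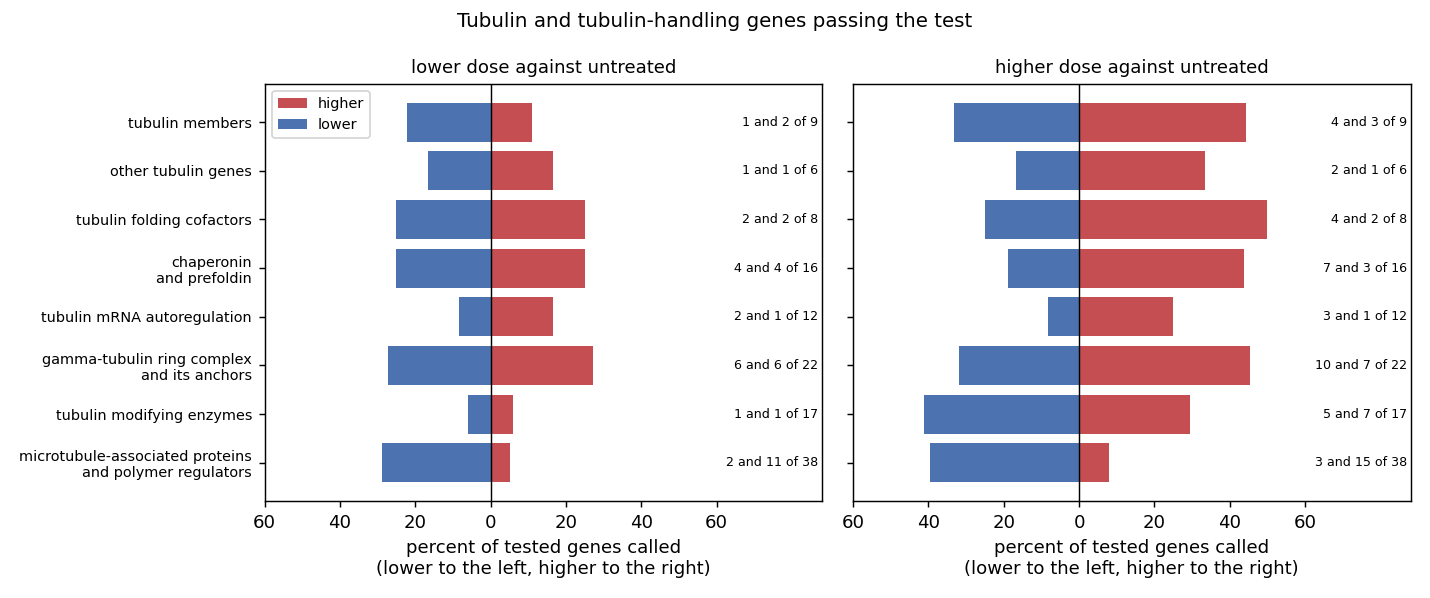
Percent of the tested genes of each tubulin-related list that edgeR called lower (left, blue) or higher (right, red), for the lower dose (left panel) and higher dose (right panel) against untreated, with the numbers higher and lower of those tested. Among the microtubule-associated genes 15 of 38 are lower at the higher dose and 3 are higher, where 28.2% of all genes tested are lower and 28.1% higher.

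The genes whose libraries followed the most abundant member of each class were taken over 9263 genes with a mean of at least 10 CPM, as a description over 6 libraries that share groups and depth. For TUBA1B they were LOC90784 (Pearson r = 0.997 of log2 CPM), AKNA (0.996) and RGS12 (0.995). For TUBB they were CAMK1 (0.970), MMADHC (0.960) and H3F3C (0.958), and for TUBG1 they were NPAT (0.999), ZNF784 (0.998) and TRIM5 (0.998). TUBB itself moved by under 3% between its lowest and highest library, so its likeness rests on small differences.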

How the data were processed

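The deposited values were read counts per gene, 1 file per library, made by the authors; the submitters' processing notes name CASAVA 1.8.1, TopHat 1.4.0, HTSeq and the build hg19. Not given in the sources used here are the annotation, counting mode, strand use and read length. The 5 summary lines (9.401% to 10.18% of reads) were left out. Counts of all 6 libraries entered 1 fit in edgeR 4.0.16 (R 4.3.3, filterByExpr, TMM factors 0.997 to 1.003, robust quasi-likelihood, 3 group means, 3 residual degrees of freedom, two-sided). The spread of each gene was moderated toward that of the others, with a median of 50.17 prior degrees of freedom. Of 21619 genes, 13548 were tested and 8071 were not. P-values were adjusted by Benjamini-Hochberg across the genes tested, and calls were made under 0.05. Standard errors were derived from the F statistic (the size of the log2 fold change divided by the root of F). The common biological coefficient of variation was 1.79%, so small changes pass. TMM takes most genes as unchanged.

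Replicate libraries differed by more than counting noise (chi-square per degree of freedom 1.517 to 1.977) and each counted as a sample. Replicate letters were not treated as pairs. CPM per kb used the length of the principal GENCODE 29 transcript, which is not the files' build, so no coordinates are given. Alternatives were DESeq2 1.42.0, other scalings and filters, leaving out each library, a replicate block, only the 2 groups compared, and an offset for transcript length and GC content (loess span 0.5, 88.27% of tested genes). The fit was tested on simulated data. Named genes were all members, every other tubulin gene by counts, and in each further list up to 4 genes with the smallest adjusted p at the higher dose, of which some are described. CNOT3 and several chaperonin genes were named after their values were seen. The members and lists were chosen with earlier results of these data known. Some sequences and 1 marker are not reported here.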

Additional observations from a re-analysis of the deposited data

How the results depend on the processing

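TUBA1A kept all 3 calls in each of its alternatives, with log2 fold changes of -0.281 to -0.218 at the lower dose, -0.624 to -0.561 at the higher dose and -0.361 to -0.324 between the doses. Of 351 alternative fold changes of the 9 members, 329 kept the call or its absence, 14 lost the call, 8 gained it and 0 reversed a called direction. The 329 include values that changed sign where neither value passed, such as TUBA1C at the higher dose (-0.038 to 0.003). Under the scaling alternatives the median log2 fold change of all genes stayed between -0.025 and 0.001. DESeq2 called 2617 genes at the lower dose (edgeR 4418) and 2823 between the doses (edgeR 4612); the cause was not tested. With the length and GC correction, 5 of the 9 members passed at the lower dose in place of 3, and 5 between the doses in place of 4, with and without the replicate block (5 each). Leaving out each library in turn gave 2 to 4 members called at the lower dose, 5 to 7 at the higher dose and 2 to 3 between the doses, where the count of 2 came without lower dose library a; over all genes the counts were 3165 to 3925, 6378 to 6861 and 3247 to 3754. With every beta gene summed, the beta totals were 4229.5, 4238 and 4263.2 CPM. The length and GC correction reversed TBCA to -0.034 at the lower dose and -0.002 at the higher dose, and TBCD to 0.013 at the higher dose, with and without the block; the cause was not tested. The deviations of same-lettered libraries had correlations of -0.1407, 0.1145 and -0.08341, small and of mixed sign. The labels do not say that a letter marks a shared culture or day, so the letters were not taken as pairs. The replicate block called 3, 7 and 4 members, as without it, and 4320, 7561 and 4516 genes. With 2 libraries per group, precision is limited by their number, and for genes such as TUBB1 (27 to 53 reads per library) and TUBB2B (49 to 66) also by counting depth.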
